A study of Rattus norvegicus with 15 samples.

Results

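The 75 genes described here encode proteins of the cytosolic ribosome. They are the rows of the deposited expression table whose symbol is Rpl or Rps followed by a number, with or without a final a, x or y, or Rplp with a number from 0 to 2. This rule found 45 large-subunit genes (Rpl and Rplp) and 30 small-subunit genes (Rps) among 21576 genes, 0.348% of the table. It used symbols alone and no measured value. Rplp2 was not analysed here, and Rpsa, Fau and Rack1, whose symbols fall outside the rule, are described apart as companions.

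The RNA came from livers of male Sprague-Dawley rats, with 5 libraries in each of 3 groups. All rats had 1 week on standard chow. CON rats then stayed on normal chow, while HFD rats were given a feed of 66% base forage, 16.7% sucrose, 8.3% yolk, 7% lard, 2% cholesterol, 0.3% sodium cholate (a bile salt) and 0.2% propylthiouracil (a drug that blocks thyroid hormone synthesis), and from the end of week 4 they received saline for another 4 weeks. ZXD rats were given that same feed, propylthiouracil included, and in place of saline received Zexie Decoction, a herbal preparation, orally at a daily 2.2 g per kg. The study asked how the decoction acts on RNA levels in hyperlipidemic rats. Fat, cholesterol, cholate and propylthiouracil were given together, so their parts cannot be told apart. The labels give 10 rats per group and do not tie libraries to rats, so p-values measure the spread between these libraries alone, part or all of which may be technical.

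A ribosome joins a small subunit, which reads the messenger, to a large subunit, which forms peptide bonds. Most of its proteins are held at about the same number of copies per ribosome. Messengers of ribosomal proteins begin with a run of pyrimidines (a 5′ terminal oligopyrimidine tract, TOP), through which mTOR and the RNA-binding protein Larp1 set how strongly they are translated. That control acts on translation more than on RNA level, and RNA sequencing of total RNA does not read it. In liver, whose hepatocytes export large amounts of plasma proteins, ribosomes are abundant, and ribosomal protein messengers are found in every cell type of the organ.

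Sequences around annotated starts are shown for 8 members so that the tract can be seen: the 5 members called lower in ZXD than in CON (Rpl10a, Rpl36, Rpl37a, Rpl41, Rps21), 2 of the 3 most abundant per length (Rplp0, Rpl10) and 1 with a long tract (Rps23, chosen after its sequence was seen). Each runs 5′ to 3′ from 10 bases before to 20 bases after the start in RefSeq on GRCr8, with the longest pyrimidine run of the 30 bases in capitals.
Rpl10a: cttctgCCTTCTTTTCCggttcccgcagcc
Rpl36: cggCCgccatcggaaagctgcaggtaagtc
Rpl37a: cccgttgcgTCTCTTCCTCTTCgggcttgg
Rpl41: CTCggaagtgacgacaccaagcacgccatt
Rps21: agccaCTTCCTTTCTgtgttctccgtagac
Rplp0: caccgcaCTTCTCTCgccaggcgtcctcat
Rpl10: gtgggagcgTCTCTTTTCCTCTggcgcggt
Rps23: ccttcctgCCTCTCTTCTCTCTTTCTCTCg
In the same order they lie at chr20:6390523-6390552 (plus strand), chr9:1533770-1533799 (plus), chr9:81748081-81748110 (plus), chr7:1563478-1563507 (minus), chr3:187724028-187724057 (plus), chr12:46718371-46718400 (minus), chrX:157205840-157205869 (plus) and chr2:23814507-23814536 (plus). The run is 11 bases long in Rpl10a, 13 in Rpl37a, 10 in Rps21, 8 in Rplp0, 13 in Rpl10 and 21 in Rps23. In Rpl36 and Rpl41 it is 2 and 3 bases, so these windows hold no such tract at the annotated start. The 5 members called lower therefore include windows with a long run and windows without.

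RefSeq starts were found for 60 of the 75 members, with 61 entries. The median longest run was 9 bases in these entries and 4 in all 33469 promoters, and 63.9% against 10.8% held a run of at least 8. Motifs of 6 letters were searched on both strands in the 50 bases from 20 before to 30 after the start. On the sense strand CTTTCC was found in 29.5% of member entries and 2.15% of all promoters, CCTTTC in 26.2% and 1.81%, CTCTTT in 31.1% and 2.06%, and CTTTTC in 14.8% and 1.82%. These motifs can overlap each other. Any of the 4 stood on the sense strand in 40 of 61 member entries (65.6%) against 6.47% of all promoters, on the antisense strand in 3.28% against 6.66%, and on either strand in 68.9% against 12.9%. These are matches of letters, and no factor's binding was measured.

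All 75 members were well covered. Libraries held 12552449 to 14228052 counts, and the lowest count of a member in any library was 41 (Rpl30 in ZXD 5). All 75 passed the filter on low counts, which kept 13163 genes. RefSeq names 908 entries as ribosomal protein pseudogenes, and how the authors' counting treated reads shared with such near-identical copies is not given in the sources used here, so the level of every member is uncertain to that extent.

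Per unit of length (the deposited FPKM, fragments per length and library total), members ranged widely in CON. Rpl10, a late-joining protein next to the tRNA path of the large subunit, was the highest at 626 ± 111 FPKM (SD, n = 5). Rps2, which lies at the messenger's entry to the small subunit, followed at 457 ± 80.9, and Rplp0, the base of the stalk that recruits elongation factors, at 445 ± 90.8. These 2 do not differ beyond their spread. The lowest were Rpl37a at 10.8 ± 2.69, Rps28 at 20.8 ± 5.03 and Rps21 at 27.9 ± 8.52 FPKM. The median over members was 157 FPKM in CON, 246 in HFD and 214 in ZXD, on a scale that carries no correction beyond the library total. The listed levels thus span 10.8 to 626 FPKM. They rest on the length given for each gene and on the uncertain counting of shared reads, and protein was not measured.

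The members took a larger share of all counts in HFD than in CON libraries. The shares were 0.796%, 1.04%, 0.975%, 0.718% and 1.16% in CON 1 to 5. They were 1.28%, 1.52%, 1.44%, 1.14% and 1.42% in HFD 1 to 5. In ZXD 1 to 5 they were 1.20%, 1.04%, 1.30%, 1.47% and 0.945%. Of the HFD libraries, 4 of 5 lay above every CON library, while HFD 4 lay just under CON 5. ZXD libraries spanned the gap, with 3 of 5 above every CON library and 2 below every HFD library. The group means were 0.938% ± 0.180 in CON, 1.36% ± 0.151 in HFD and 1.19% ± 0.207 in ZXD (SD, n = 5), a ratio of 1.45 for HFD over CON, 0.875 for ZXD over HFD and 1.27 for ZXD over CON. The counting error of a share, a 95% Wilson interval, reached at most 0.00662 percentage points to either side, far under the spread between libraries.

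How far HFD and CON differed in share depended on what the counts were divided by. The liver's most abundant messengers took fewer counts in HFD and ZXD: albumin took 8.57% ± 0.628 in CON, 4.33% ± 0.916 in HFD and 3.64% ± 1.23 in ZXD, with no overlap with CON. TMM, which scales libraries so that most genes show no change, gave CON factors of 0.793 to 0.868, HFD factors of 1.07 to 1.13 and ZXD factors of 1.01 to 1.28. On the TMM-scaled library size the members' share was 1.14% ± 0.190 in CON, 1.23% ± 0.137 in HFD and 1.07% ± 0.115 in ZXD. The HFD over CON ratio was then 1.09 with all but 1 HFD library inside the CON range, and the ZXD over CON ratio was 0.941 in place of 1.27. The ZXD over HFD ratio hardly moved, at 0.866. With the 10 most abundant other genes, albumin among them, left out of the total, the shares were 1.18%, 1.63% and 1.40%. The HFD over CON ratio was still 1.38 there, with 4 HFD libraries above every CON library. As a share of summed FPKM, members held 2.47% ± 0.434, 3.64% ± 0.323 and 3.31% ± 0.554. On that scale the HFD over CON ratio was 1.48, and HFD and CON did not overlap.

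**Figure D1:**
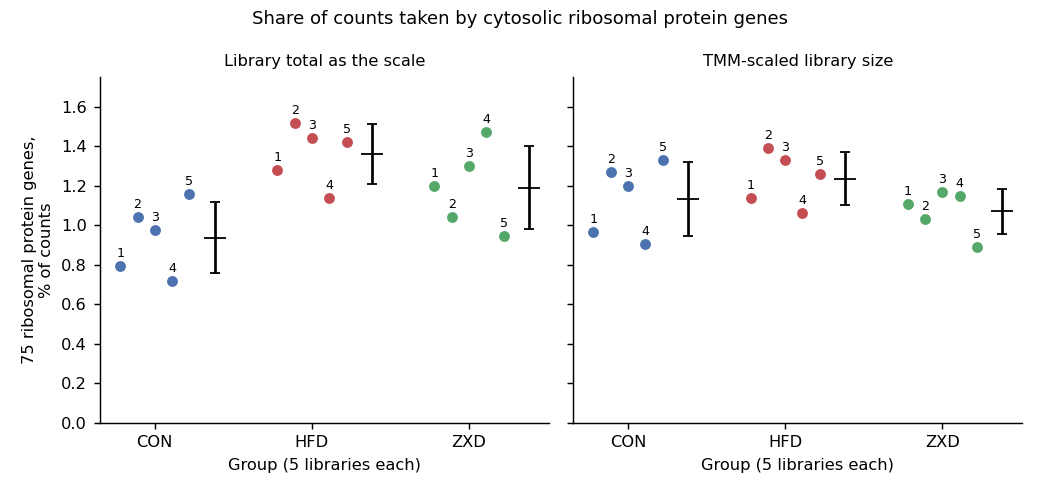
Share of counts taken by the 75 genes (vertical axis, percent) in each library, by group, with the library total (left) or the TMM-scaled library size (right) as the scale. Points are libraries with their replicate number and black marks are the mean ± SD of 5. HFD stands above CON on the left (1.36% against 0.938%), and the groups overlap on the right (1.23% against 1.14%).

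Large- and small-subunit genes kept nearly the same proportion in every library. The ratio of large-subunit to small-subunit counts was 1.83 ± 0.0414 in CON, 1.84 ± 0.0319 in HFD and 1.78 ± 0.0369 in ZXD (SD, n = 5). In ZXD 4 of 5 libraries lay below every HFD library, a difference of a few percent. Large-subunit genes took 0.607%, 0.881% and 0.762% of counts in CON, HFD and ZXD, and small-subunit genes 0.331%, 0.479% and 0.428%.

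Marker genes of several cell types moved with these groups. The summed level of 15 macrophage markers lay between 323 and 911 CPM (counts scaled to a common TMM-adjusted library size) in CON, 571 and 3684 in HFD and 883 and 5711 in ZXD. Much of this sum was Cd74, at 99.9 ± 23.8 CPM in CON, 1034 ± 812 in HFD and 1449 ± 1116 in ZXD. Of the 15, 6 were called higher and 0 lower in HFD against CON on the TMM scale (10.0% and 10.9% of all genes). Mean Cd163 was 40.6 CPM in CON and 25.1 in HFD. The sum of 16 lymphocyte markers, 1 of them at 0 in all libraries, lay between 23.7 and 62.3 CPM in CON, 52.1 and 178 in HFD and 68.9 and 476 in ZXD. The sum of 8 hepatocyte markers, albumin among them, lay between 158061 and 201277 CPM in CON, 68815 and 102699 in HFD and 51185 and 93849 in ZXD, so the libraries carried the defining genes of liver. Albumin alone was at 104205 ± 8820 CPM in CON and 39352 ± 8563 in HFD. Of the 8, 4 were called lower and 0 higher in HFD against CON on the TMM scale (10.9% and 10.0% of all genes). On library totals 4 were lower and 1 higher (3.84% and 40.9% of all genes). The sum of 5 cholangiocyte markers lay between 16.7 and 26.6 CPM in CON, 49.1 and 91.1 in HFD and 38.3 and 82.6 in ZXD, and that of 6 endothelial markers between 74.5 and 289, 69.3 and 287, and 297 and 465. Cholangiocyte sums in both other groups thus lay above CON, and endothelial sums in ZXD above both. The part of these shifts in the members' values was not tested. In bulk RNA, fewer cells of a type and less RNA per cell cannot be told apart.

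Within groups, the members were high or low together from library to library. With each gene centred on its own mean over 15 libraries (log2 CPM, TMM scale), the member median was -0.22, 0.17, 0.11, -0.36 and 0.22 in CON 1 to 5. It was 0.03, 0.32, 0.24, -0.10 and 0.17 in HFD 1 to 5, and -0.02, -0.15, 0.03, 0.01 and -0.38 in ZXD 1 to 5. CON 1 and CON 4 stood low and CON 2, CON 3 and CON 5 high, so that the CON libraries alone spanned most of the range of all 15. In CON 4, 3 of 75 members were above their own mean, in CON 5 there were 73, in HFD 2 there were 71, and in ZXD 5 there were 0. The SD of these medians within groups was 0.203. Other tested genes of up to 500 bases, centred in the same way, also shifted between libraries. Their median was -0.08, 0.31, 0.21, -0.00 and 0.14 in CON 1 to 5. It was -0.09, 0.24, 0.13, -0.12 and 0.21 in HFD 1 to 5, and -0.11, -0.22, -0.05, -0.29 and -0.22 in ZXD 1 to 5. Genes above 4000 bases had medians between -0.15 (HFD 3) and 0.10 (ZXD 1). The part of length in the members' shared movement was not tested. Over all members and libraries the SD of centred values was 0.29, and 0.19 after each library's member median was taken off. A typical member then varied by an SD of 0.12 (the median over members). Within CON, the median member had an SD of 0.28 on the log2 scale, close to 0.29 for all tested genes, and within HFD and ZXD 0.20 against 0.33 and 0.32. Other tested genes at or above the mean level of the lowest member, with no upper bound, had 0.22 in CON, 0.27 in HFD and 0.25 in ZXD. The members' median SD was above theirs in CON and below it in HFD and ZXD.

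**Figure D2:**
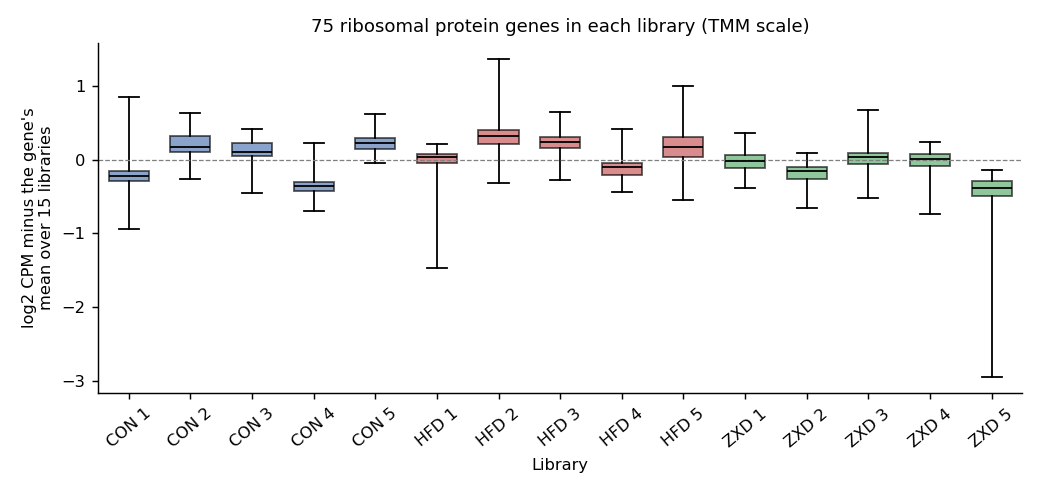
Level of the 75 genes in each library, as log2 CPM on the TMM scale minus the gene's mean over the 15 libraries. Boxes span the quartiles, lines are medians and whiskers reach the lowest and highest member. CON medians run from -0.36 to 0.22, HFD medians from -0.10 to 0.32 and ZXD medians from -0.38 to 0.03.

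The HFD against CON comparison asks what the feed changed. On the TMM scale members were called less often than all genes: 0 of 75 rose and 1 fell (edgeR quasi-likelihood test, adjusted p under 0.05). Of all tested genes 21.0% were called, 10.0% higher and 10.9% lower. Related lists described below differed, with 5 of 69 genes of ribosome biogenesis called and 7 of 18 factors that handle the nascent chain. Without adjustment 2 members had a p under 0.05, 1 in each direction, against 37.0% of all genes. The median log2 fold change was 0.13 for members and 0.02 for all genes. The members' fold changes had an SD of 0.16 against 0.91 over all genes, and 74 of 75 lay within 0.5 of zero against 62.8% of all genes. For 59 members the 95% interval lay within 1.5-fold in either direction, which 29.0% of all genes reached, and for 73 within 2-fold. The interval of the other 16, Rpl10a among them, reached past 1.5-fold. Above zero were 62 members, 82.7% against 51.4% of all genes. The members share the library-wide movement described above, so the counts in this comparison do not rest on 75 separate measurements.

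The exception was Rpl10a, a protein of the stalk that guides spent tRNA out of the ribosome. It measured 90.1, 112, 112, 98.8 and 121 CPM in CON 1 to 5 and 90.4, 70.4, 85.5, 75.9 and 60.3 in HFD 1 to 5. HFD 1 alone reached into the CON range, by a hair above CON 1. The fall in HFD was -0.48 on the log2 scale (95% interval -0.75 to -0.22, SE 0.12, edgeR adjusted p = 0.0151). In ZXD it stood at 77.6, 80.2, 90.4, 96.1 and 77.3 CPM, each above the HFD mean of 76.5 and inside or below the CON range. On library totals the HFD difference was -0.07 (edgeR adjusted p = 0.734). HFD 2 and HFD 5, the lowest for Rpl10a, had the highest macrophage marker sums of their group (3684 and 2737 CPM). In ZXD the libraries with the highest sums, ZXD 4 and ZXD 3 (5711 and 4956 CPM), had the highest Rpl10a. The relation of Rpl10a to these sums was not tested. Without HFD 2 and HFD 5, which takes out the lowest Rpl10a values, the log2 fold change was -0.35 and the call was lost (edgeR adjusted p = 0.118).

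No member of the elongation stalk or of the peptidyl transferase region passed on the TMM scale. Rplp0 measured 486, 654, 625, 471 and 708 CPM in CON, 547, 737, 660, 528 and 619 in HFD and 578, 506, 602, 664 and 473 in ZXD. The groups overlap almost whole, and the HFD difference was 0.07 (SE 0.16, 95% interval -0.26 to 0.40, edgeR adjusted p = 0.773). Its stalk partner Rplp1 was at 190 ± 39.7 CPM in CON and 206 ± 38.5 in HFD. Rpl3, which reaches toward the peptidyl transferase centre, was at 224 to 345 CPM in CON and 254 to 371 in HFD (0.27, SE 0.16, edgeR adjusted p = 0.222). Rpl10 was at 580 ± 84.4 and 569 ± 41.7 CPM, a log2 fold change of -0.03.

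In the 5S particle and the exit tunnel no member passed either. Rpl5 and Rpl11 bind 5S rRNA, and when free they bind Mdm2, the ligase that marks p53 for breakdown. Rpl5 was at 300 ± 49.3 CPM in CON and 345 ± 26.1 in HFD (0.20, edgeR adjusted p = 0.269), and Rpl11 was at 116 to 158 CPM in CON and 142 to 166 in HFD (0.12, edgeR adjusted p = 0.521). Rpl4, which lines the tunnel, was at 448 ± 107 and 498 ± 73.4 CPM, and Rpl39, the shortest gene of the set, at 29.1 ± 6.08 and 29.3 ± 6.75. Rpl17, at the tunnel's mouth, had the largest positive fold change at 0.68 and also a wide spread (SE 0.32, edgeR adjusted p = 0.136).

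In the small subunit, no member passed. Rps6, the classic target of S6 kinase, was at 278 ± 46.8 CPM in CON and 337 ± 47.4 in HFD (0.28, edgeR adjusted p = 0.189). Rps19, whose loss of a copy causes Diamond-Blackfan anaemia in people, had means of 68.0 and 83.3 CPM (0.29, edgeR adjusted p = 0.209). Rps27a, made as a fusion with ubiquitin, had a fold change of 0.16, and Rps3, at the messenger entry, 0.11. Rps2 lay on the other side of zero at -0.18 (edgeR adjusted p = 0.379). Of all members, Rpl7 alone had HFD libraries wholly above CON: 241, 273, 264, 210 and 267 CPM in CON against 274, 291, 325, 308 and 286 in HFD. That is 1 of 75 against 6.59% of all genes with HFD wholly above CON, and its test did not pass (0.24, edgeR adjusted p = 0.176). The member nearest to the threshold on the higher side was Rpl36a, a protein close to the tRNA exit site, at 50.0 ± 8.87 and 64.1 ± 8.36 CPM (0.36, SE 0.14, edgeR adjusted p = 0.0805). It passed with upper-quartile factors (0.46, edgeR adjusted p = 0.0389) and with offsets for gene length (0.35, edgeR adjusted p = 0.0367).

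Scaled by library totals, the same comparison reads differently. Then 61 of 75 members rose and 0 fell (edgeR adjusted p under 0.05), 81.3% against 40.9% of all tested genes called higher and 3.84% called lower. The members' median was 0.55 and the median of all genes 0.44, so the members exceeded all genes by 0.11, the same difference as on the TMM scale. On this scale 28 members had HFD libraries wholly above CON, 37.3% against 25.2% of all genes. Rplp0 was then at 0.48 (edgeR adjusted p = 0.0386), Rpl5 at 0.62 (edgeR adjusted p = 0.00353) and Rps6 at 0.69 (edgeR adjusted p = 0.00582).

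**Figure D3:**
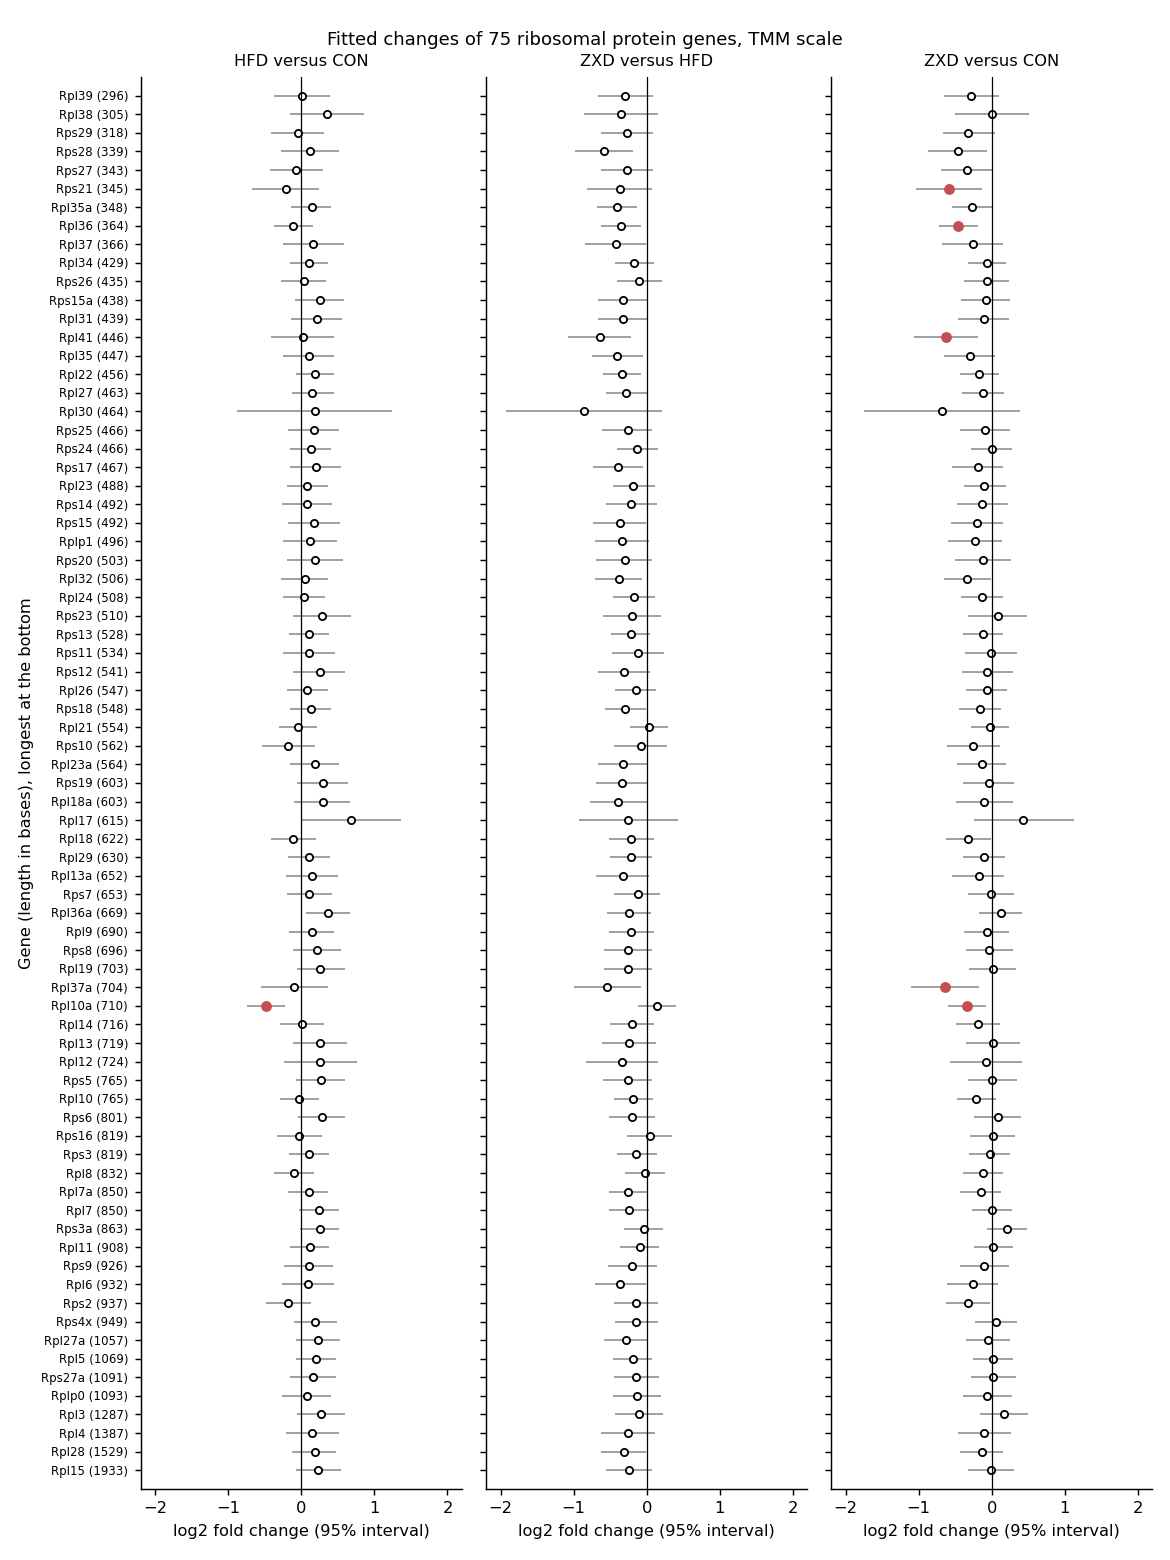
Fitted log2 fold change (horizontal axis, TMM scale) with its 95% interval for each of the 75 genes in the 3 comparisons, ordered by length with the longest at the bottom. Filled points passed an edgeR adjusted p under 0.05: 1 in HFD against CON, 0 in ZXD against HFD and 5 in ZXD against CON.

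The ZXD against HFD comparison asks what the decoction changed in rats on the feed. By edgeR no member passed, and neither did any of the 13163 tested genes (0%). DESeq2's Wald test called 348 genes (2.64%), of which 0 were members. Members nonetheless leaned lower in ZXD: 72 of 75 had a fold change below zero against 47.9% of all genes, with a median of -0.25 against 0.02. At an unadjusted p under 0.05, 15 of 75 members were lower and 0 higher, where 6.62% of all genes were lower and 9.84% higher. On library totals that count was 8 of 75 (10.7%), against 6.15% of all genes. The members share the library-wide movement described above, so these counts do not rest on 75 separate measurements. Single libraries moved the members' median. With each of the 15 libraries left out in turn it ran from -0.31 to -0.18. It was -0.18 without ZXD 5, in which every member lay under its own mean. Without HFD 2 it was -0.19, and without HFD 2 and HFD 5 it was -0.17. For the members, ZXD 5 was the lowest ZXD library and HFD 2 the highest HFD library. Leaving them out therefore makes the median less negative by construction. The median was -0.24 with library totals and -0.07 with offsets for gene length. The 95% interval lay within 1.5-fold for 39 members and within 2-fold for 72.

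Among the members lowest in ZXD relative to HFD, Rpl30, a protein at the face between subunits, had the most negative fold change, -0.86, with an SE of 0.50 (edgeR adjusted p = 0.394). Rpl41, the smallest ribosomal protein, had -0.64 (SE 0.21, edgeR adjusted p = 0.183). Rps28, which lies where the messenger leaves the small subunit, measured 8.22, 9.97, 10.5, 8.11 and 9.76 CPM in HFD and 7.56, 5.14, 6.15, 7.14 and 5.07 in ZXD. Its ZXD libraries all lay below HFD (-0.58, SE 0.19, edgeR adjusted p = 0.183). Rpl22, an RNA-binding protein of the subunit's surface, was without overlap too, at 21.0 to 27.6 CPM in HFD and 16.4 to 20.4 in ZXD (-0.34, edgeR adjusted p = 0.210). So was Rpl36, which is described next. These 3 are 4.00% of members, against 1.53% of all tested genes with ZXD wholly below HFD. On library totals 1 member (1.33%) was without overlap, against 1.53% of all genes. Rpl35a had -0.41 (SE 0.13, edgeR adjusted p = 0.183), while Rplp0 had -0.13, Rpl11 -0.09 and Rps3a -0.04. Rpl10a was on the other side at 0.14.

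ZXD against CON sets the feed with the decoction against chow. It shares the CON libraries with the first comparison, so its values are given beside those and not as a repeat. On the TMM scale 5 of 75 members fell and 0 rose, 6.67% against 32.7% of all genes called, 14.8% of them lower and 17.9% higher. The median was -0.10 against 0.03 for all genes. No member had groups without overlap, against 18.0% of all genes. Scaled by library totals, 19 rose and 0 fell, 25.3% against 45.9% of all genes called higher and 4.77% lower, and the median was 0.33 against 0.45. The sign of the members' median against CON thus differed between scales, and its difference from the median of all genes was -0.13 on both.

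The 5 that fell were Rpl36, Rpl41, Rpl37a, Rpl10a and Rps21. Rpl36, a small basic protein of the large subunit, measured 102, 123, 128, 79.9 and 118 CPM in CON, 99.2, 107, 107, 101 and 96.9 in HFD, and 85.5, 90.7, 79.9, 78.9 and 66.6 in ZXD. Apart from CON 4, every CON library lay above every ZXD library. The log2 fold change was -0.46 (SE 0.13, edgeR adjusted p = 0.0141), and this call was kept whichever library was left out. On library totals its fold change was -0.03 and did not pass (edgeR adjusted p = 0.850).

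Rpl41 measured 69.3, 87.3, 67.4, 49.5 and 65.2 CPM in CON and 43.9, 36.5, 40.1, 57.1 and 41.6 in ZXD, with CON 4 and ZXD 4 crossing. It fell by 0.63 (SE 0.21, edgeR adjusted p = 0.0306). HFD spread over both groups, at 60.6, 99.0, 59.8, 42.4 and 80.8 CPM. Rpl37a, a zinc-binding protein of the large subunit and the member lowest per length, was at 6.10, 11.1, 10.1, 7.89 and 10.9 CPM in CON and 6.46, 6.62, 6.77, 5.43 and 4.27 in ZXD. It fell by 0.64 (SE 0.22, edgeR adjusted p = 0.0360), with CON 1 inside the ZXD range. Rps21, of the small subunit, was at 8.70, 14.7, 12.4, 7.62 and 14.6 CPM in CON and 11.0, 7.79, 8.24, 5.61 and 6.08 in ZXD, with CON 1 and CON 4 inside the ZXD range, and fell by 0.59 (SE 0.21, edgeR adjusted p = 0.0469). Rpl10a fell by 0.34 (SE 0.12, edgeR adjusted p = 0.0469). On library totals its fold change was 0.09, that of Rpl41 -0.18, of Rpl37a -0.22 and of Rps21 -0.18, and none of these passed.

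The count of 5 moved with single libraries. It was 1 (Rpl36) without CON 2, CON 3 or ZXD 5, 2 without CON 5, ZXD 2 or ZXD 3, 3 without HFD 2, HFD 4 or ZXD 4, and 11 without CON 4, the CON library lowest in ribosomal proteins. With offsets that take out each library's trend with gene length, none of the 5 passed and Rps3a rose (0.32, edgeR adjusted p = 0.0447).

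**Figure D4:**
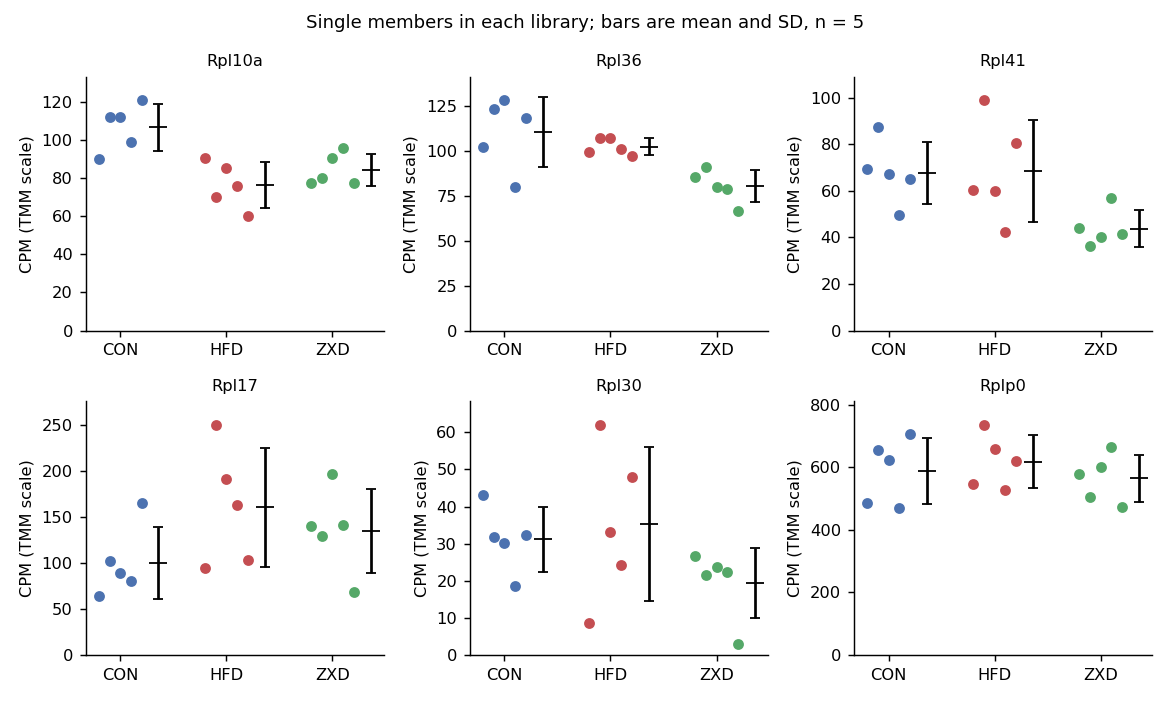
Level of 6 members in each library (vertical axes, CPM on the TMM scale, each from 0). Points are libraries and black marks the mean ± SD of 5. Rpl10a is lower in HFD (76.5 CPM against 107 in CON), Rpl36 and Rpl41 in ZXD, Rpl17 and Rpl30 scatter widely within groups, and Rplp0 overlaps throughout.

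Length set members apart from most genes and, to a lesser degree, from each other. The table's length column gives 296 bases for Rpl39 to 1933 for Rpl15, with a median of 603 against 2312 for all tested genes, and 67 of 75 members are no longer than 1000 bases. In ZXD against HFD the members' median was -0.34 for the 25 of up to 500 bases, -0.21 for the 42 of 500 to 1000 bases and -0.22 for the 8 longer ones. Below zero were 25 of 25, 39 of 42 and 8 of 8 members, against 73.8%, 64.2% and 55.3% of other genes in these classes. Medians of other genes also climbed with length, at -0.26 for 149 genes of up to 500 bases, -0.13 for 988 of 500 to 1000, -0.04 for 4233 of 1000 to 2000, 0.04 for 4922 of 2000 to 4000 and 0.14 for 2796 above 4000. The median of members minus that of other genes was -0.08, -0.08 and -0.17 in the 3 classes that hold members, against -0.27 for members minus all tested genes.

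Against CON the slope differed by comparison. In HFD against CON, members were at 0.12, 0.11 and 0.19 in the 3 length classes, and other genes at -0.03, 0.03 and 0.04. In ZXD against CON, members were at -0.20, -0.07 and -0.03 and other genes at -0.25, -0.10 and -0.01, differences of 0.06, 0.02 and -0.02. Of the 5 members called lower in ZXD, Rpl36, Rpl41 and Rps21 are 364, 446 and 345 bases long, and Rpl37a and Rpl10a 704 and 710.

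Across the 75 members, log2 fold change and log10 length correlated with r = 0.37 (Spearman's rho 0.46) in ZXD against HFD, 0.41 (0.46) in ZXD against CON and 0.14 (0.17) in HFD against CON. Without the 2 members farthest from the median length r was 0.42, 0.43 and 0.11. Over the 13088 other tested genes r was 0.15, 0.04 and -0.03, and over the 5098 of them no longer than the longest member 0.08, 0.02 and -0.02. These describe genes measured in the same libraries, which are not independent of each other. Level per length was weakly related to length among members (r = 0.27 for log10 FPKM in CON), with median CON levels of 125, 166 and 147 FPKM in the 3 classes. In ZXD the shortest class had a median of 123 FPKM and the middle class 223, against 170 and 256 in HFD.

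**Figure D5:**
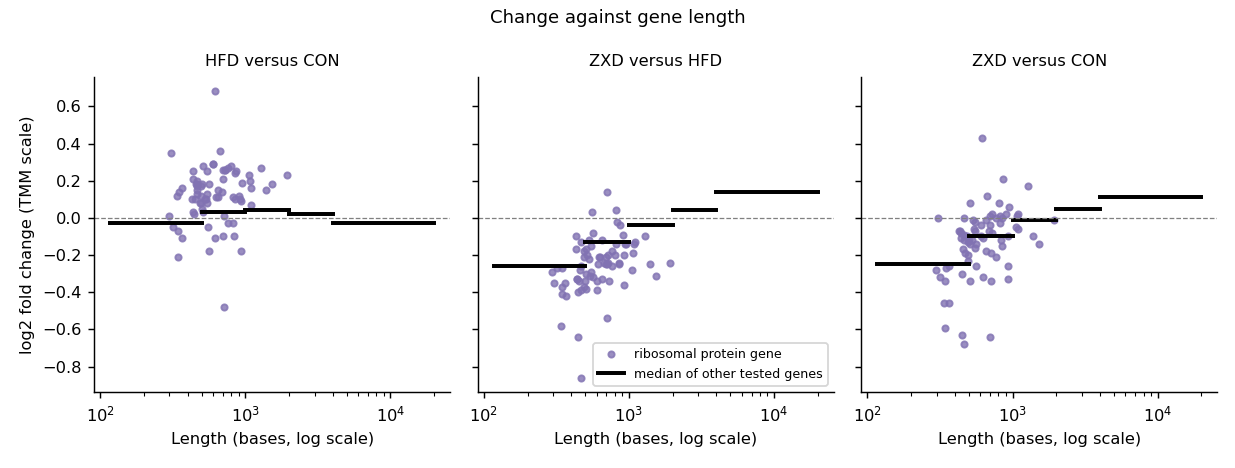
Log2 fold change (vertical axis, TMM scale) against gene length (bases, log axis) in the 3 comparisons. Points are the 75 genes and black lines the medians of other tested genes in 5 length classes. In ZXD against HFD both the points and the lines climb with length, the lines from -0.26 to 0.14.

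Some members did not follow the others. After each library's member median was taken off, 6 of 75 kept an SD above 0.3: Rpl30 (0.93), Rpl17 (0.48), Rpl41 and Rpl10a (0.34 each), Rps21 and Rpl37a (0.30 each). Rpl30 measured 43.2, 31.7, 30.2, 18.5 and 32.3 CPM in CON, 8.54, 62.1, 33.2, 24.3 and 48.0 in HFD and 26.6, 21.5, 23.7, 22.4 and 2.97 in ZXD. HFD 1 and ZXD 5 stood far below the libraries of their groups, with 132 and 41 counts where the others of their groups held at least 357 and 276. Rpl17 measured 63.7, 102, 89.2, 80.1 and 165 CPM in CON, 94.7, 251, 192, 163 and 103 in HFD and 140, 130, 197, 141 and 68.2 in ZXD. ZXD 5 was the lowest ZXD library for both genes and HFD 1 the lowest HFD library, while HFD 5 was low for Rpl17 and high for Rpl30.

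Of the companions outside the symbol rule, none passed in any comparison on the TMM scale. Rpsa, a protein of the small subunit, had log2 fold changes of 0.14 in HFD against CON (edgeR adjusted p = 0.474), -0.09 in ZXD against HFD and 0.05 in ZXD against CON. Rack1, a signalling scaffold on the small subunit, had -0.01, -0.05 and -0.06 in the same order. Fau, made as a fusion with a ubiquitin-like protein, had 0.08, -0.29 and -0.21. On library totals, Rpsa rose in HFD against CON (0.56, edgeR adjusted p = 0.0117) and in ZXD against CON (0.48, edgeR adjusted p = 0.0192), and Fau in HFD against CON (0.50, edgeR adjusted p = 0.0198). Among 5 tested paralogs, Rpl22l1, the close relative of Rpl22, was lower in ZXD than in CON (-0.88, SE 0.23, edgeR adjusted p = 0.0109), from 9.37 ± 1.44 to 5.09 ± 1.20 CPM. Scaled by library totals, it was at -0.43 and did not pass (edgeR adjusted p = 0.168).

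Of 69 tested genes of ribosome biogenesis, 5 rose and 0 fell in HFD against CON, where 10.0% of all genes were called higher and 10.9% lower, with a median of 0.17 against 0.02. Ltv1, which helps export the small subunit, rose from 13.5 ± 1.05 to 21.0 ± 3.20 CPM (0.64, SE 0.12, edgeR adjusted p = 0.00229), and Nop56, of the particle that methylates rRNA, by 0.55 (edgeR adjusted p = 0.0103). Of 35 genes of RNA polymerases I and III, which transcribe rRNA and tRNA, 2 rose and 1 fell (23 and 0 on library totals): Polr1a, the largest subunit of polymerase I, rose from 24.7 ± 2.94 to 39.9 ± 5.55 CPM (0.69, edgeR adjusted p = 0.00242). In ZXD against CON biogenesis genes had 5 higher and 5 lower (17.9% and 14.8% of all genes), with Ltv1 still higher (0.43, edgeR adjusted p = 0.0134) and Nop10, of the particle that forms pseudouridine, lower (-0.58, edgeR adjusted p = 0.00392). In ZXD against HFD 0 of each list passed. On the scale of library totals 53 of the 69 rose in HFD against CON (40.9% of all genes) and 42 in ZXD against CON (45.9%), and 0 fell in either.

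Among factors that work with the ribosome, calls went both ways. The shares of all genes to read them against are again 10.0% higher and 10.9% lower on the TMM scale, and 40.9% and 3.84% on library totals. Of 39 initiation factors, 3 rose and 3 fell in HFD, among them Eif4ebp1, the repressor of cap binding that mTOR switches off, which rose from 22.2 ± 2.78 to 37.4 ± 6.61 CPM (0.75, SE 0.13, edgeR adjusted p = 0.00152). Of 17 TOP messengers outside the ribosome, 0 rose and 1 fell, with a median of -0.01. That gene was Eef2, the translocation factor, which fell from 2587 ± 236 to 1597 ± 185 CPM (-0.70, SE 0.14, edgeR adjusted p = 0.00376). Its fold change on library totals, -0.28, did not pass (edgeR adjusted p = 0.0955). Of 14 elongation and release factors, Eef2 included, 0 rose and 2 fell. The split of calls differed on library totals, where 27 initiation factors, 13 TOP messengers and 6 elongation and release factors rose in HFD and 0 fell.

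Of 18 factors that handle the nascent chain, 0 rose and 7 fell in HFD (10.9% of all genes fell), with Srprb, a subunit of the signal recognition particle receptor, falling from 58.6 ± 5.95 to 31.6 ± 6.01 CPM (-0.89, SE 0.13, edgeR adjusted p = 0.000333). Scaled by library totals, 8 rose and 1 fell (40.9% and 3.84% of all genes), and the latter was Srprb (-0.47, edgeR adjusted p = 0.0121). Of 40 genes of mTOR signalling and Myc, 2 rose and 6 fell in HFD (10.0% and 10.9% of all genes), including Deptor, an mTOR inhibitor, at -1.33 (SE 0.28, edgeR adjusted p = 0.00519) and Sesn2, a leucine sensor, at -0.95 (edgeR adjusted p = 0.00715). On library totals 16 of the 40 rose and 1 fell, with Deptor at -0.91 (edgeR adjusted p = 0.0120).

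Mitochondrial ribosomal proteins are encoded by a separate set of genes. Of 73, 2 rose and 5 fell in HFD against CON (10.0% and 10.9% of all genes), and 0 rose and 19 fell in ZXD against CON (17.9% and 14.8%), with a median of -0.23 against -0.10 for the cytosolic members. The split was the reverse on library totals, with 30 higher and 0 lower in HFD against CON and 21 higher and 1 lower in ZXD against CON, where 40.9% and 45.9% of all genes were called higher. The difference between both sets was not tested.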

How the data were processed

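Trizol-purified total RNA of liver was sequenced from Illumina libraries, per the labels' protocols. Per the file headers, the authors deposited 1 table with a read count and an FPKM value for each gene in 15 libraries, and a gene length. Their notes to GEO name edgeR. How reads were aligned and counted, the build, the annotation and the use of strand were not given in the sources used here, so no coordinates of the table are printed. The deposited FPKM values equalled count over length and library total within 0.01% in 100% of values above 0. Groups and replicate numbers came from the sample titles.

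Counts were scaled with TMM and filtered with filterByExpr (minimum count 10, minimum total 15) in edgeR 4.0.16 (R 4.3.3). All 15 libraries entered 1 robust quasi-likelihood fit with group as the term and 12 residual degrees of freedom. Adjusted p-values are Benjamini-Hochberg values over all 13163 tested genes within a comparison. Log2 CPM carries a prior count of 2. The fit was tested on simulated data. Alternatives were library totals, upper-quartile and DESeq2 size factors, other filters, DESeq2 1.42.0, limma 3.58.1 voom, a replicate block, offsets for length, pairs of groups, and each library left out.

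Members and lists were chosen with earlier results of these data known. The members named are a fixed set (among them Rplp2, not analysed here), plus in each comparison the 5 with the smallest adjusted p and the 5 largest changes in each direction, and the 3 highest and 3 lowest in CON FPKM. From other lists, up to 3 called genes with the smallest adjusted p were eligible.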

Additional observations from a re-analysis of the deposited data

Results flagged for a closer look

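In 123 checks of a named member's CPM, or of the members' share of counts, within a group of 5, 2 found a library far from the other 4, where chance flags about 1 in 20 groups. Both were in ZXD 5. Rpl30 was at 2.97 CPM there and at 21.5 to 26.6 in the other ZXD libraries. Rpl11 was at 114 CPM there and at 144 to 156 in the others. In ZXD 5 all 75 members lay below their own mean.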

How the results depend on the processing

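Calls were recomputed under 28 other settings, and leaving out libraries is given as a range. With library totals as scale, HFD against CON had 61 members higher and 0 lower (median 0.55) and ZXD against CON 19 higher and 0 lower (median 0.33). Of members called on either scale, 2 changed sign in HFD against CON (Rpl10, to 0.39, and Rpl21) and 6 in ZXD against CON (Rps3, to 0.40, Rpl10a, to 0.09, Rpl15, Rpl21, Rpl34 and Rps7). Outside the members, Mrpl43 moved to 0.10 in HFD against CON and Eif2s2 to 0.08 in ZXD against CON. The count of members lower in ZXD than in CON, 5 by the reported fit, was 1 with upper-quartile factors, 3 with no filter, 2 by limma voom, 0 with length offsets (1 higher) and 7 by DESeq2. In HFD against CON, 1 member was higher with upper-quartile factors and 1 with length offsets, and 0 were lower without HFD 2 and HFD 5. Shares in CON, HFD and ZXD were 1.18%, 1.63% and 1.40% without the 10 most abundant other genes and 2.47%, 3.64% and 3.31% of FPKM, and 1.14% in CON on the TMM scale. Leaving out each library gave 1 to 11 members lower in ZXD than in CON (median -0.18 to -0.04), 0 higher and 1 lower in HFD against CON in every case (0.07 to 0.19), and 0 calls in ZXD against HFD (-0.31 to -0.18). CON shares then ran over 0.883 to 0.993%, HFD shares 1.32 to 1.42% and ZXD shares 1.12 to 1.25%. The causes of these shifts were not tested.

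The labels do not say that a replicate number marks a shared animal or batch, and correlations of same-numbered libraries ran from -0.55 to 0.26. With the replicate block 1 member (Rpl36) was lower in ZXD than in CON, 0 with the block and length offsets together, and 1 (Rpl10a) was lower in HFD than in CON. Members were counted at 41 reads or more, so depth limits them less than the spread between libraries.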
